A study of Pan troglodytes with 38 samples.

Results

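The heat shock proteins and their co-chaperones were described across the hearts of 38 chimpanzees, one library per animal. The members were all genes of the authors' chimpanzee gene count table whose symbol begins with HSPA, HSPB, HSP90, DNAJA, DNAJB or DNAJC, together with HSPD1, HSPE1, HSPH1 and BAG1 to BAG6. This rule found 77 of the 31373 genes in the table, of which 18040 have a symbol. There were 28 DNAJC, 12 DNAJB, 12 HSPA, 7 HSPB, 6 BAG, 4 DNAJA and 3 HSP90 genes, 1 each of HSPD1, HSPE1 and HSPH1, and also HSPBAP1 and HSPBP1, which share the HSPB letters but are not small heat shock proteins. By role, the table holds 10 stress-inducible, 22 constitutive cytosolic, 8 endoplasmic reticulum, 7 mitochondrial, 5 muscle small heat shock and 7 germ cell members and 18 others. These are names of fixed lists. The constitutive cytosolic list also holds members that act elsewhere, such as DNAJC8 (splicing), DNAJC9 (histones) and DNAJC13 (endosomes). The mitochondrial chaperonin genes HSPD1 and HSPE1 are in the stress-inducible list and not in the mitochondrial one. HSPA1A and HSPA6, stress-inducible genes of the HSPA family, are not among the symbols of the table, may be among its genes without a symbol, and were not analysed here.

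Heat shock proteins are molecular chaperones that bind unfolded or partly folded proteins. The HSP70 proteins (HSPA genes) and HSP90 proteins use ATP, and the HSP40 proteins (DNAJ genes) bring clients to HSP70 and stimulate its ATPase, whereas the BAG proteins and HSPH1 release nucleotide from HSP70. Some members are made in all cells at all times, such as HSPA8, while others, such as HSPA1B and DNAJB1, are induced by the transcription factor HSF1 when proteins unfold, and HSPA5 and HSP90B1 are induced in the endoplasmic reticulum by the unfolded protein response. Heart muscle is also known for small heat shock proteins such as HSPB6 and HSPB7, which are associated with the sarcomere.

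The hearts were sampled after death, and the RNA is from whole tissue, so that fewer cells of a type and less RNA per cell cannot be told apart. All animals form 1 group by their labels, which give no treatment or genotype. The paper states that some of its chimpanzees lived in laboratories and had been challenged with HBV or HCV. It also states that some are first-degree relatives. Neither infection nor kinship was a covariate in the fits here, and their part in the results was not tested. By the study's sample table, RNA of 17 animals was extracted in an earlier year and RNA of 21 in 2018. The paper states that some of its chimpanzee libraries had been published before and that previously described libraries were sequenced again. Whether these were all of the earlier-year libraries is not settled by the paper's text. New against published libraries was not a covariate, so extraction year cannot be told apart from it in the fits here. There were 22 females and 16 males, and age was given for 34 animals. The human libraries of the study could not be tied to samples of this series, so human orthologs of the members were not analysed here.

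Counts per animal summed to between 43892814 and 132478050 over all genes, with a median of 63749322 for the earlier year and 63528761 for 2018. Levels are given as CPM, counts scaled to a fixed total, of the library size scaled by the TMM method. The limit that a count of 0 allows, 3 counts, was between 0.0251 and 0.104 CPM in these libraries and covers counting error only. Little_R and 537, both of 2018, stood apart from the others, with 18.9% and 16.5% of all genes at least 2-fold over the median animal against at most 14.7% in any other animal. Little_R had the lowest total, and the share of counts on the 13 mitochondrial genes was 17.2% to 60.1% over the animals, 48.3% in Little_R and 60.1% in 537. Because Little_R also stood apart in the members, the main fits and pairs are given with and without it. The tissue label was checked with 8 cardiomyocyte markers, whose summed level was 9674 to 74438 CPM in the other animals and 5239 CPM in Little_R, and none of the 8 was at 0 there.

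Of the 77 members, 69 reached 6 CPM in at least 1 animal, 70 had a median of at least 1 CPM, and 20 had a median of at least 100 CPM. The 8 that did not reach 6 CPM were DNAJB7, DNAJB8, DNAJB13, DNAJC5B, DNAJC12, DNAJC16, DNAJC22 and HSPB9. DNAJB8 had no count in 34 of the 38 animals and DNAJC5B had none in 25, and both are known from testis. HSPB9, a small heat shock protein of the testis, had no count in 10 animals. CPM was not divided by transcript length, because exon lengths were not used here, and levels are therefore compared between animals and not between genes. HSP90AA1, HSP90AB1, HSPA8, HSPD1, HSPE1 and HSPB1 have processed copies elsewhere in primate genomes that can share reads with them, so that their levels are uncertain to that extent.

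The stress-inducible members had long upper tails, as the plot of levels by animal shows. DNAJB1, the main inducible HSP40 of the cytosol, was 19.2 CPM in the lowest animal, 35.3 CPM in the median and 11987 CPM in Little_R, and the next highest animal, 495, had 699 CPM. The inducible HSP70 gene HSPA1B ranged from 120 CPM over a median of 236 CPM to 33056 CPM in Little_R, with 3602 CPM in 495 as the next value. Its reads may include those of HSPA1A, whose sequence is nearly identical, so the value is that of the pair as counted. HSPH1, the HSP110 that exchanges nucleotide on HSP70, ranged from 13.3 CPM to 7163 CPM, with 414 CPM in 529 as the next value and a median of 49.5 CPM without Little_R. For all 3 genes the highest animal was at least 9.18 times the next.

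**Figure D1:**
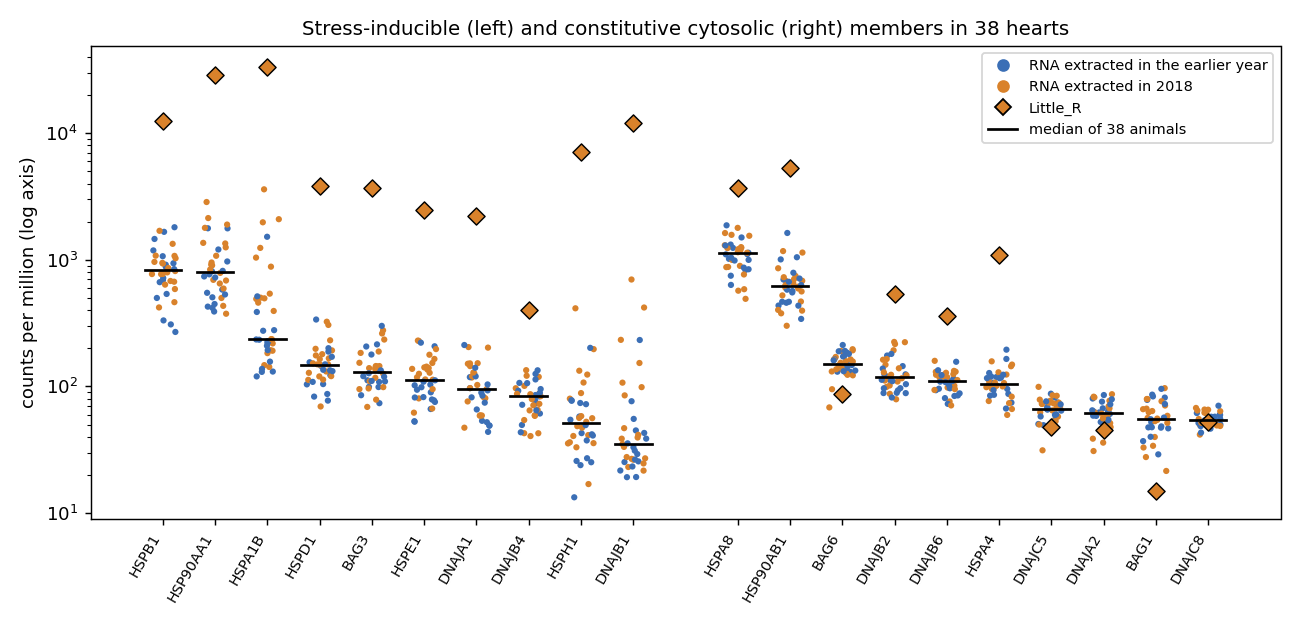
CPM on a log axis for the 10 stress-inducible members (left) and the 10 constitutive cytosolic members with the highest medians (right), one point per animal, coloured by the year of RNA extraction, with a bar at the median of 38 animals and a diamond for Little_R. All 10 stress-inducible members are highest in Little_R, where DNAJB1 is 11987 CPM against a median of 35.3 CPM, while BAG1 is lowest there.

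Among the constitutive cytosolic members, HSPA8, the HSP70 that is present in all cells, was 492 CPM in the lowest animal, 1122 CPM in the median and 3719 CPM in the highest. HSP90AB1, the constitutive cytosolic HSP90, had 301 CPM, 619 CPM and 5291 CPM at the same points. By the SD of log2 CPM over all animals, the BAG proteins BAG5 (15.6 to 27.7 CPM) and BAG4 (5.15 to 10.4 CPM) and the J protein DNAJC8 (41.7 to 70.4 CPM), which takes part in splicing, varied least of this list. Without Little_R, the SD of log2 CPM over 37 animals was 0.45 for HSPA8, 0.52 for HSP90AB1 and 0.16 for BAG5, against 1.26 for DNAJB1, 1.26 for HSPA1B and 0.99 for HSPH1.

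Of the chaperones of the endoplasmic reticulum, HSPA5 and HSP90B1 are described here. HSPA5, also called BiP, ranged from 126 CPM over a median of 281 CPM to 862 CPM, and its highest values were in 4x0025 and 4x523, both of the earlier year, followed by Little_R at 757 CPM. HSP90B1, the HSP90 of the same compartment, ranged from 135 CPM over 226 CPM to 1160 CPM, the last in Little_R, followed by 685 CPM in both 4x523 and 537. Mitochondrial HSPA9, which draws proteins through the inner membrane, was 101 to 429 CPM with a median of 283 CPM. Among the small heat shock proteins of muscle, HSPB7 was 573 to 5693 CPM (median 3470 CPM), HSPB6 157 to 2780.5 CPM (median 1127 CPM), HSPB3 34.8 to 410 CPM and HSPB8, the partner of BAG3, 284 to 1080.3 CPM. HSPB7, HSPB6 and HSPB2 were lowest in Little_R and HSPB3 in 537.

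Little_R was then set against the median of the other 37 animals, as a description of a single animal with no test. All 10 stress-inducible members were at least 4-fold higher and above every other animal. Over all 69 members that reached 6 CPM, 17 were at least 4-fold higher and 7 at least 4-fold lower, and 23 lay above and 10 below every other animal. At least 2-fold, 22 were higher and 14 lower, where 19.3% and 24.3% of all genes were. The other counts compare with 7.26% (at least 4-fold higher), 7.78% (at least 4-fold lower), 13.4% (above every other animal) and 19.8% (below every other animal) of the 11752 genes that reached 6 CPM. These folds of counted genes, and the folds of single pathway and marker genes below, used a pseudocount of 0.5 CPM. The folds of single members below are of CPM.

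The level of DNAJB1 in Little_R was 342-fold the median of the others, and that of HSPH1 was 145-fold, HSPA1B 140-fold and HSPA1L 104-fold. HSPA1L is a testis HSP70 whose gene overlaps HSPA1B in RefSeq's annotation of another chimpanzee assembly, NHGRI_mPanTro3-v2.0. Whether the 2 overlap among the Ensembl genes counted here was not checked. With strand also not stated for the counts, HSPA1L may hold reads of HSPA1B. HSP90AA1, the inducible cytosolic HSP90, was 29010 CPM in Little_R and 375 to 2860 CPM in the others (36.8-fold). BAG3, which links HSP70 to HSPB8 and to autophagy, was 3685 CPM in Little_R and 68.9 to 301 CPM in the others. The mitochondrial chaperonin genes HSPD1 and HSPE1 were 25.8-fold and 22.2-fold higher, DNAJA1 was 23.3-fold, the small heat shock protein HSPB1 was 15.4-fold and DNAJB4 was 4.77-fold. Each of these 10 genes was at least 2.96 times its next highest animal. By the fold with the pseudocount, DNAJB1 ranked second of all genes in Little_R, after ENSPTRG00000049334, which has no symbol in the table and was at 3662 CPM against a median of 1.23 CPM, and which is named here after its values were seen.

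In Little_R, 7 members outside the inducible list were also at least 4-fold higher, named here to complete the count. Besides HSPA1L, these were HSPA4L (28.5-fold) and HSPA4 (10.6-fold), which are HSP110 relatives of HSPH1, HSP90AB1 (8.64-fold), DNAJA4 (7.64-fold), HSP90B1 (5.13-fold) and DNAJB2 (4.64-fold). HSPA8 was 3.36-fold and HSPA5 2.72-fold higher, and HSPA5 was not above every other animal. The median log2 folds were 4.77 for the stress-inducible, 0.68 for the endoplasmic reticulum and -0.12 for the constitutive cytosolic members, against -0.16 over all genes. The 5 genes of the muscle small heat shock list had a median log2 fold of -2.19, with HSPB6 7.35 times and HSPB7 6.16 times lower than the median of the others and HSPB8 at 436 CPM within their range of 284 to 1080.3 CPM. The 7 mitochondrial members had a median log2 fold of -1.42, with HSPA9 at 235 CPM within the range of the others and DNAJC28, listed as mitochondrial, 11.9 times lower.

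**Figure D2:**
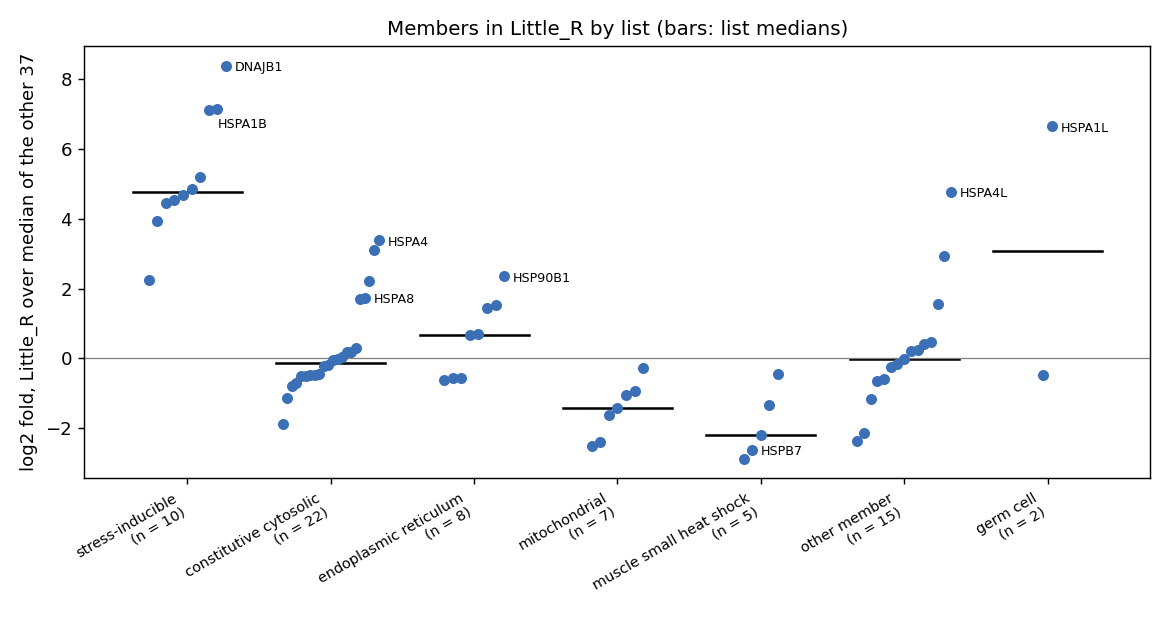
Log2 fold (with 0.5 CPM added) of Little_R over the median of the other 37 animals, one point per member that reached 6 CPM, grouped by list, with bars at list medians. The 10 stress-inducible members all lie above 0 with a median of 4.77, the constitutive cytosolic members scatter around 0 with HSPA4 and HSP90AB1 on top, and the 5 muscle small heat shock proteins lie below 0.

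Other genes of the chaperone pathway were described from a list of 40 that includes the member HSPBP1. Of the 39 that reached 6 CPM, 9 were at least 4-fold higher and 2 at least 4-fold lower in Little_R, where 7.26% and 7.78% of all genes were. The HSP90 co-chaperones FKBP4 (36.8-fold), CHORDC1 (29.7-fold), STIP1 (16.6-fold), AHSA1 (8.93-fold) and PTGES3 (7.35-fold), the chaperonin subunits TCP1 (6.66-fold) and CCT4 (4.66-fold), and PDIA4 (13.1-fold) and SDF2L1 (5.77-fold) of the endoplasmic reticulum made up the 9. HSF1, the transcription factor that drives the inducible genes, was at 101 CPM in Little_R and 54.8 to 197 CPM in the others. CRYAB, a small heat shock protein of muscle under its own symbol, was at 1639 CPM and within the range of the others (845 to 6203 CPM).

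Members took 16.2% of the counts outside the mitochondrial genes in Little_R and 1.37% to 3.54% in the other animals. The stress-inducible list alone took 13.6% in Little_R and 0.193% to 1.87% in the others, and the constitutive cytosolic list 1.47% and 0.260% to 0.692%. Counts of HSPA1B were 8.89 times those of HSPA8 in Little_R, and 0.100 to 2.86 times in the others with a median of 0.268. For HSP90AA1 over HSP90AB1 the ratio was 5.48 in Little_R and 0.733 to 3.57 in the others. Among the marker lists, all 8 cardiomyocyte markers were at least 2-fold lower in Little_R, and so were all 3 ventricular, 3 of 4 atrial and 3 of 5 macrophage markers. At least 2-fold higher were 5 of 6 fibroblast and 2 of 5 endothelial markers, and also the atrial NR2F2 (2.85-fold) and the macrophage CD68 (2.01-fold). Of 4 lymphocyte markers 2 were lower and 1 higher, and 1 each of 4 smooth muscle, 4 adipocyte and 3 neutrophil markers was higher. Of all genes that reached 6 CPM, 24.3% were at least 2-fold lower and 19.3% higher. The summed level of fibroblast markers was 5211 CPM in Little_R and 342 to 3996 CPM in the others, and that of endothelial markers was 1976 CPM and 525 to 1948 CPM. The part of cell makeup, of the low total and of other properties of this library in the fold changes was not tested.

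Several other animals held raised inducible members to a lesser degree, and they were named after their values were seen. In 495, of 2018, 7 of the 10 stress-inducible members were at least 2-fold over the median of all animals and none of the constitutive cytosolic members was. The count of stress-inducible members was 5 in 529, 4 in 558 and 5 in 4X0333, all of 2018, and 7 in 4x523, of the earlier year, and only 4x523 of these had a constitutive cytosolic member at that level, 1 of 22. Of all genes, 10.1% were at least 2-fold over the median in 495, 14.7% in 529, 11.2% in 558, 3.77% in 4X0333 and 6.01% in 4x523. Mitochondrial genes took 45.3%, 52.7%, 53.9%, 21.5% and 17.2% of the counts of these animals in that order, against a median of 30.45% over all animals. The part of this share in the raised levels was not tested. In the same order, DNAJB1 was 699, 420, 233, 98.7 and 233 CPM, and HSPA1B was 3602, 2092, 1978, 1041 and 1520 CPM. Between 4x523 and 4x0025, which both had high HSPA5 at 829 and 862 CPM, DNAJB1 was 233 CPM in the former and 33.1 CPM in the latter. Thus a high level of HSPA5 was found both with and without a high level of DNAJB1 in these 2 animals. In 4x0025, however, 3 of the 10 stress-inducible members were at least 2-fold over the median, as were 4.69% of all genes. The stress-inducible list took 0.797% of its counts outside the mitochondrial genes, against a median of 0.375% over all animals. In 537, the other library that stood apart, DNAJB1 was 153 CPM and HSPB7 872 CPM, the lowest value of HSPB7 after Little_R.

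Variability between animals was then measured at a given level of expression. Overdispersion was fitted per gene with a negative binomial model, as in the study, but on other inputs. The study used orthologous exon counts with total reads and gene length, and here gene counts with TMM library sizes and no length were used. Its natural logarithm was compared with a trend on mean expression, and dispersion here means the distance above or below that trend, so that a gene with a positive value varied more between animals than genes of like expression. The median dispersion was 1.96 for the 10 stress-inducible members, and all 10 were above 0. For the 22 constitutive cytosolic members it was -0.57, with 5 of 22 above 0, and for all 11752 genes it was -0.11, with 45.1% above 0. The upper 10% of all genes held 9 of the 10 stress-inducible and 1 of the 22 constitutive cytosolic members.

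The member with the highest dispersion was DNAJB1 at 3.13, which placed it at percentile 99.7 of all genes. HSPA1L (2.96), HSPH1 (2.93), HSPA1B (2.43) and HSPA4L (2.21) followed. At the low end were BAG4 (-2.07), BAG5 (-2.07), DNAJC8 (-1.86), DNAJC18 (-1.76) and DNAJC9 (-1.41), and BAG4 lay at percentile 0.162. BAG4 and BAG5 are co-chaperones that bind the ATPase domain of HSP70, DNAJC9 is a histone chaperone, and DNAJC18 is a J protein of the endoplasmic reticulum membrane. Dispersion was near 0 for HSPB7 (-0.21) and HSPA8 (-0.17), and above 0 for HSPA5 (0.61) and HSP90B1 (0.87). Of the 8 endoplasmic reticulum members 4 were above 0 (median 0.08), and DNAJC3 (-0.83) and DNAJC1 (-1.035) were lowest.

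**Figure D3:**
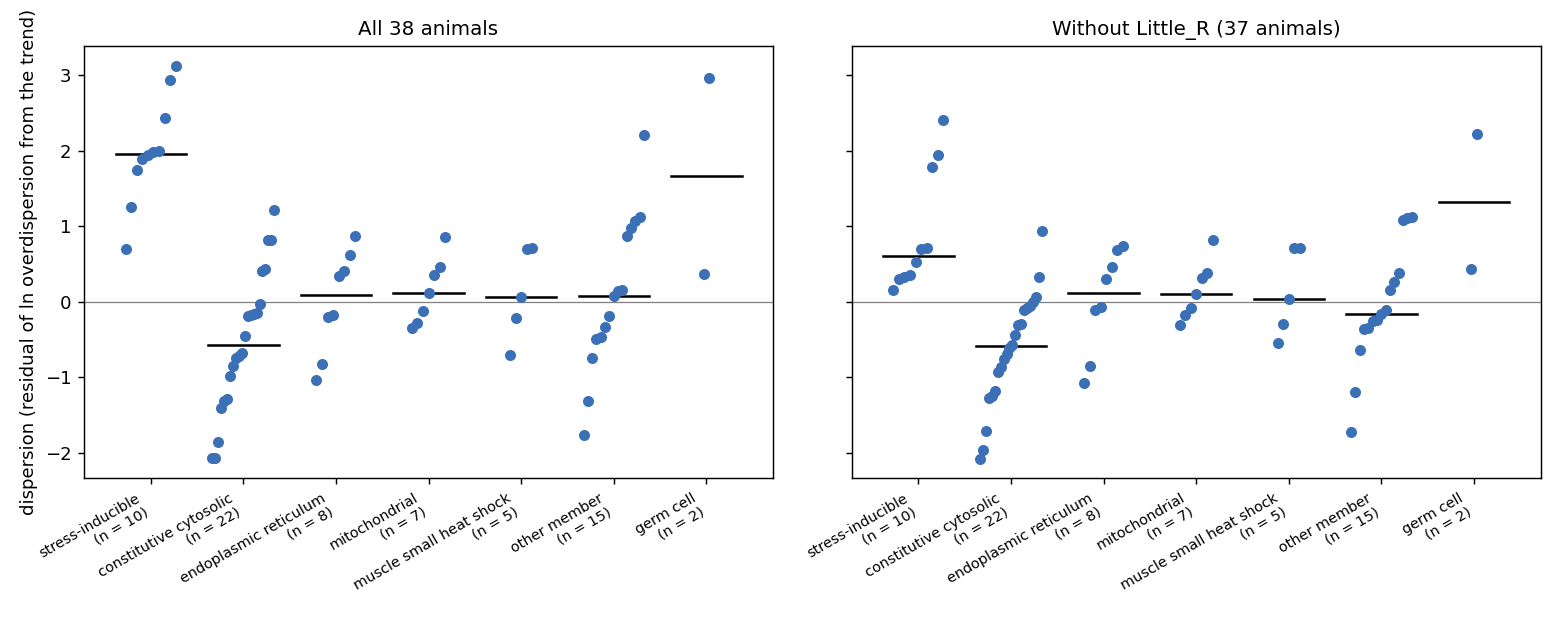
Dispersion of the members that reached 6 CPM (residual of ln overdispersion from the trend on mean expression, no unit), grouped by list, for all 38 animals (left) and for 37 animals without Little_R (right), with bars at list medians. The median of the stress-inducible list falls from 1.96 to 0.61 without Little_R, all 10 of its members stay above 0, and that of the constitutive cytosolic list is -0.57 and -0.59.

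Without Little_R, the medians were 0.61 for the stress-inducible, -0.59 for the constitutive cytosolic members and -0.11 for all genes. All 10 stress-inducible members were still above 0, and 3 of 10 were in the upper 10% of all genes. DNAJB1 (2.40), HSPA1B (1.94) and HSPH1 (1.78) remained at percentiles 99.0, 97.5 and 96.6, whereas HSPA4L changed from 2.21 to -0.17 and HSPA4 from 1.21 to -0.29. The difference between the medians of the stress-inducible and the constitutive cytosolic list was 2.53 with all animals, 1.20 without Little_R and 1.77 in the animals of the earlier year alone, where again all 10 stress-inducible members were above 0. These are descriptions of fixed lists, and no test was made over them.

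Which members varied together over animals was asked with a slope on the log2 CPM of DNAJB1, fitted to every gene by edgeR's quasi-likelihood test with extraction year and RNA integrity number as covariates and Benjamini-Hochberg adjustment over all genes. Of 73 members tested, 47 passed the threshold of 0.05, 23 rising and 24 falling with DNAJB1, but so did 49.1% of all genes tested (24.5% rising and 24.6% falling). With library sizes from the total on orthologous exons the split was 27 rising and 15 falling, where 50.5% of all genes passed (36% rising and 14.5% falling) and their median slope was 0.07. All 9 of the other stress-inducible members rose, with a median slope of 0.45 log2 units per log2 unit of DNAJB1. Of the 22 constitutive cytosolic members 5 rose and 7 fell (median -0.03), all 7 members of the mitochondrial list fell (median -0.18), 4 of 5 muscle small heat shock proteins fell (median -0.23), and 4 of 8 members of the endoplasmic reticulum rose and 1 fell (median 0.06). The mitochondrial chaperonin genes HSPD1 and HSPE1, which are in the stress-inducible list, were among the 9 that rose. Of the 18 other members 3 rose and 5 fell. The median slope over all genes was 0.01.

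The slope was 0.84 ± 0.04 (SE) for HSPA1B (adjusted p = 2.11e-17), 0.80 ± 0.04 for HSPH1 (adjusted p = 1.29e-16) and 0.80 ± 0.04 for HSPA1L (adjusted p = 2.89e-18), the 3 smallest p-values of the whole table. DNAJA1, an HSP40 of the cytosol, had 0.46 ± 0.04, and HSP90AA1 had 0.55 ± 0.05. The members that fell with the smallest adjusted p were DNAJC28 (-0.51 ± 0.07), DNAJC6 (-0.39 ± 0.08), which uncoats clathrin vesicles, DNAJC13 (-0.17 ± 0.03), an endosomal J protein, DNAJC22 (-0.33 ± 0.07) and BAG1 (-0.21 ± 0.05), a nucleotide exchange factor. HSPB7 fell by 0.25 ± 0.06 log2 units per unit of DNAJB1 (adjusted p = 0.000715). HSPA8 rose by 0.15 ± 0.04 (adjusted p = 0.00222).

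Without Little_R, 34 of 73 members passed, 16 rising and 18 falling, against 40.5% of all genes (23.4% rising and 17.1% falling). The 2 fits shared 31 of the members that passed, out of 47 with and 34 without Little_R. Fits with and without Little_R have 37 animals in common. Their overlap over all genes was not counted, here or for the fits below. Stress-inducible members still rose in 8 of 9 cases, with slopes of 0.89 ± 0.07 for HSPA1B, 0.70 ± 0.07 for HSPH1, 0.41 ± 0.07 for HSP90AA1, 0.35 ± 0.06 for DNAJA1 and 0.24 ± 0.06 for BAG3. The exception was HSPE1, and HSPA8 also no longer passed. HSPA4L was at 0.37 ± 0.05 with Little_R and at -0.05 ± 0.05 without, where it did not pass. Of the 40 pathway genes 12 rose and 4 fell, with PDIA4 (0.66 ± 0.09), CHORDC1 (0.39 ± 0.05), STIP1 (0.30 ± 0.05) and FKBP4 (0.28 ± 0.05) among those that rose and HSF2 (-0.20 ± 0.04) and the mitochondrial HSP90 TRAP1 (-0.24 ± 0.06) among those that fell.

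**Figure D4:**
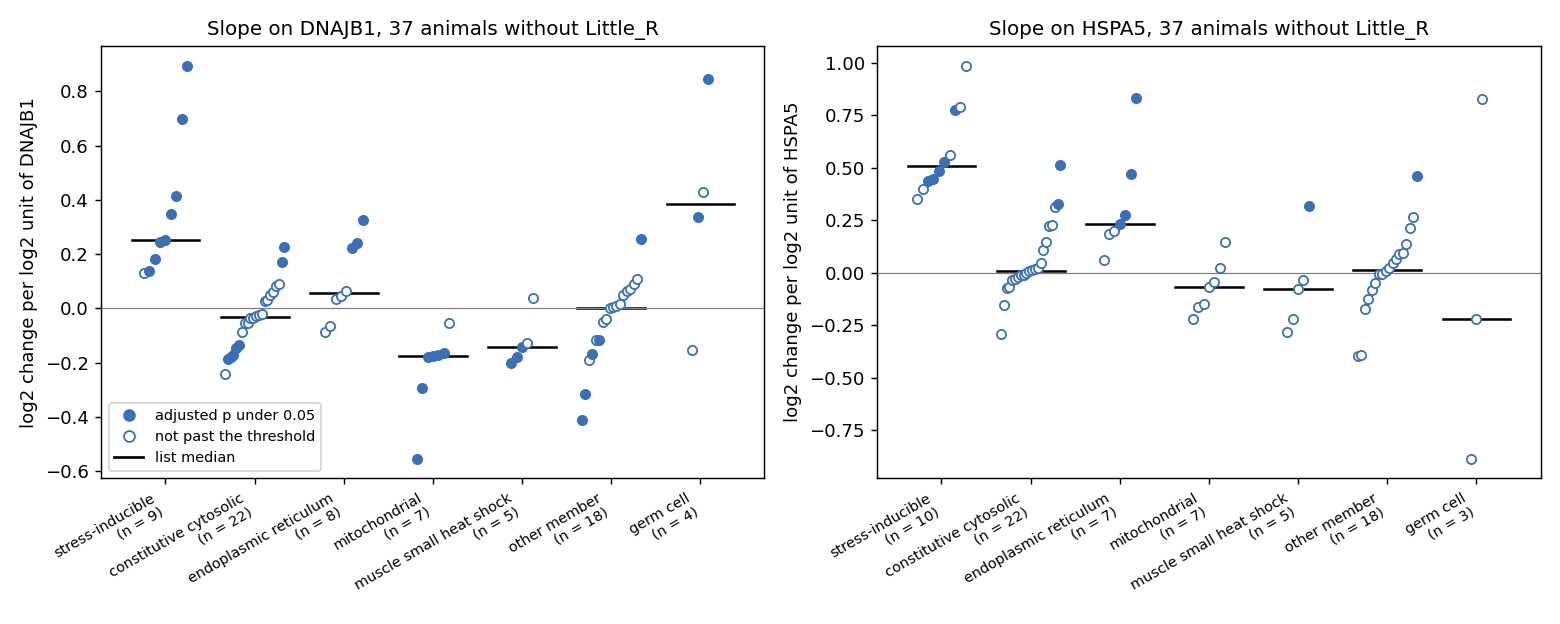
Slope of each tested member on the log2 CPM of DNAJB1 (left) and of HSPA5 (right) in 37 animals without Little_R, grouped by list, with filled points for an adjusted p under 0.05 and bars at list medians. On DNAJB1 the stress-inducible members lie above 0 with a median of 0.25 and the mitochondrial members below with a median of -0.18, and on HSPA5 the medians are 0.51 for stress-inducible and 0.23 for endoplasmic reticulum members.

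Markers of cell types moved with DNAJB1 as well. In the 37 animals without Little_R, 7 of 8 cardiomyocyte markers fell, all 6 fibroblast, all 3 erythrocyte and all 4 lymphocyte markers rose, and 2 of 5 endothelial markers and 1 each of 4 atrial, 4 smooth muscle, 5 macrophage and 3 neutrophil markers tested rose, while none of the 3 ventricular and 4 adipocyte markers passed. When the first principal component of expression was added to the model, 1.49% of all genes passed, 1 of the 4 lymphocyte markers still rose and no other cell type marker passed, and 11 members passed, of which 10 rose. These were HSPA1L, HSPA1B (0.84 ± 0.11), HSPH1 (0.71 ± 0.11), BAG3 (0.43 ± 0.08), HSP90AB1 (0.41 ± 0.08), HSP90AA1 (0.43 ± 0.11), DNAJA1 (0.36 ± 0.08), HSPA8 (0.34 ± 0.06), DNAJB4 (0.32 ± 0.07) and DNAJB6 (0.17 ± 0.05). No mitochondrial member and no muscle small heat shock protein passed in that fit, and the slope of HSPB7 was 0.07. The member that fell was HSPBAP1, at -0.27 ± 0.07.

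Correlation of log2 CPM was used to compare 5 pairs of members over the animals, with 2-sided permutation tests (100000 permutations, for which 1e-05 is the smallest p) and adjustment over the 5 pairs. DNAJB1 and HSPH1 had r = 0.93 and rho = 0.77 over 38 animals (permutation p = 1e-05 and adjusted p = 2.5e-05 for both). Without 495 and Little_R, the 2 animals farthest from the median of DNAJB1, r was 0.84, as it was without Little_R alone, and within the earlier year it was 0.79 and within 2018 without Little_R 0.87. DNAJB1 and HSPB7 had r = -0.68 and rho = -0.58 (permutation p = 0.00012 and 0.00023, adjusted p = 2e-04 and 0.000383), and r was -0.49 without Little_R (adjusted p = 0.00702 by permutation), -0.41 without the 2 animals farthest from the median, -0.27 within the earlier year and -0.50 within 2018 without Little_R. In the earlier year, this pair did not pass by r (adjusted p = 0.253 by permutation) but did by rho (-0.56, adjusted p = 0.034).

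DNAJB1 and the constitutive HSPA8 had r = 0.50 (permutation p = 0.00385, adjusted p = 0.00385) and rho = 0.27 (permutation p = 0.107, adjusted p = 0.107). For this pair r did not pass without 495 and Little_R (0.16, permutation p = 0.359) or without Little_R alone (0.18, permutation p = 0.277). With library sizes from the total on orthologous exons, r was 0.67 and rho 0.42 over 38 animals (adjusted p = 0.000162 and 0.0119 by permutation). That library size was not used for the pairs without Little_R. Within the earlier year, a set that holds neither animal, r was 0.64 and passed (adjusted p = 0.0108 by permutation). Within 2018 without Little_R it was 0.03 (adjusted p = 0.913 by permutation). DNAJB1 and HSPA5 had r = 0.49 (permutation p = 0.00218, adjusted p = 0.00272) and rho = 0.29 (permutation p = 0.0732, adjusted p = 0.0915), and r was 0.37 without Little_R (permutation p = 0.0273, adjusted p = 0.0342), 0.31 without the same 2 animals as above (permutation p = 0.0671), 0.50 within the earlier year and 0.35 within 2018 without Little_R. HSPA5 and HSP90B1 had r = 0.86 and rho = 0.87 (permutation p = 1e-05 and adjusted p = 2.5e-05 for both). Their r was 0.85 without Little_R, 0.83 without the 2 animals farthest from the median of HSPA5, which were 4x0025 and 4x523, 0.92 within the earlier year and 0.81 within 2018 without Little_R.

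**Figure D5:**
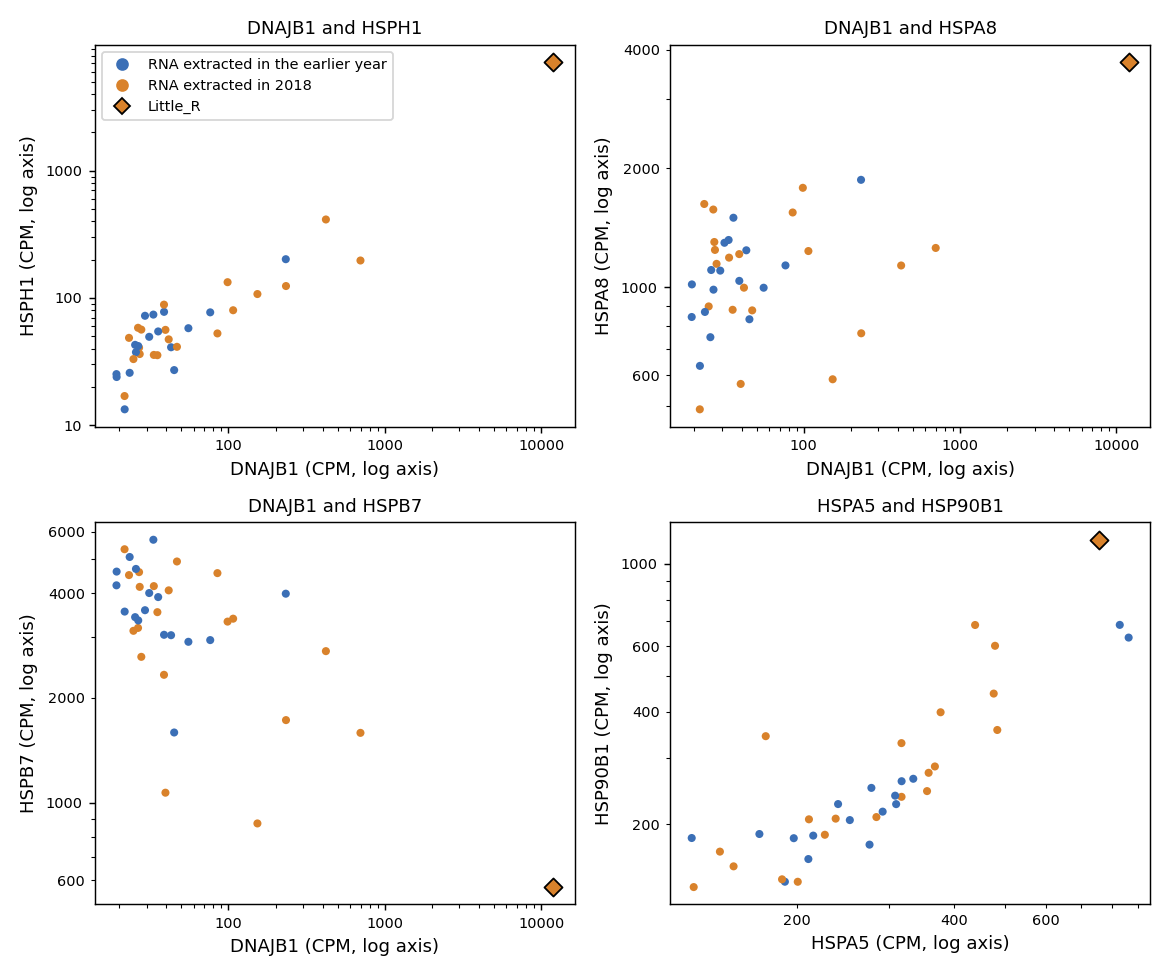
CPM of 4 pairs of members in 38 animals on log axes, one point per animal, coloured by year of RNA extraction, with a diamond for Little_R. DNAJB1 and HSPH1 rise together with or without Little_R (r = 0.93 and 0.84), DNAJB1 and HSPA8 do so much less without it (r = 0.50 and 0.18), and HSPA5 and HSP90B1 rise together (r = 0.86 and 0.85).

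The members nearest in pattern to DNAJB1, by r of log2 CPM centred within extraction year over 38 animals, were HSPA1L (0.95), HSPA1B (0.94), HSPH1 (0.92), DNAJA1 (0.85) and HSP90AA1 (0.84). HSPA1L and HSPA1B were also the 2 nearest of all genes that reached 6 CPM. The same 5 members were nearest in the 37 animals without Little_R, with r from 0.67 to 0.90. Nearest to HSPA5 were HSP90B1 (0.87), DNAJC3 (0.72), DNAJB11 (0.72), HSP90AA1 (0.71) and HSP90AB1 (0.68). DNAJC3 and DNAJB11 are J proteins of the endoplasmic reticulum that work with HSPA5.

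The slope on HSPA5 was fitted in the same way. Of 73 members tested, 23 passed, 22 rising and 1 falling, against 4.15% of all genes tested (2.73% rising and 1.42% falling). With library sizes from the total on orthologous exons, 27 rose and 7 fell, where 21.8% of all genes passed (16.9% rising and 4.95% falling) and the median slope of all genes was 0.10 and not 0.0032. HSP90B1 had a slope of 0.90 ± 0.09 log2 units per log2 unit of HSPA5 (adjusted p = 4.83e-08), the smallest p of the whole table, and DNAJB11 (0.53 ± 0.09), DNAJC3 (0.30 ± 0.05) and DNAJC1 (0.25 ± 0.05) of the endoplasmic reticulum also rose, 4 of the 7 tested. All 10 stress-inducible members rose (median slope 1.07), among them HSP90AA1 (1.34 ± 0.19), BAG3 (1.08 ± 0.18) and DNAJB1 (1.92 ± 0.35), as did 5 of the 22 constitutive cytosolic members, with HSP90AB1 (0.79 ± 0.13) in front. DNAJC5G, a cysteine string protein of the testis, was the member that fell (-0.93 ± 0.23), at a median level of 0.903 CPM. None of the 7 mitochondrial and 5 muscle small heat shock members passed, and 1 of 4 smooth muscle markers was the only cell type marker that did.

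Without Little_R, 13 of 72 members passed and all 13 rose, against 1.31% of all genes (0.831% rising and 0.482% falling), and 12 of them were among the 23 above. HSP90B1 (0.83 ± 0.09), DNAJB11 (0.47 ± 0.10), DNAJC3 (0.28 ± 0.06) and DNAJC1 (0.23 ± 0.05) stayed past the threshold, and so did HSP90AA1 (0.78 ± 0.13), HSP90AB1 (0.51 ± 0.10), HSPA4 (0.33 ± 0.08), BAG3 (0.49 ± 0.11), HSPD1 (0.45 ± 0.11), HSPE1 (0.44 ± 0.11), HSPB1 (0.53 ± 0.13), DNAJA4 (0.46 ± 0.12) and, in this fit, HSPB8 (0.32 ± 0.08). DNAJB1, HSPA1B and HSPH1 no longer passed. With DNAJB1 as a further covariate in all 38 animals, 4 members passed, which were HSP90B1 (0.74 ± 0.09), DNAJB11 (0.39 ± 0.09), DNAJC3 (0.30 ± 0.06) and HSP90AA1 (0.60 ± 0.13), against 0.64% of all genes. DNAJB1 itself stayed among the members tested, although its own level was in the model. Without Little_R the same fit passed HSP90B1 (0.73 ± 0.10), DNAJC3 (0.29 ± 0.06), HSP90AA1 (0.58 ± 0.11) and, in place of DNAJB11, HSP90AB1 (0.41 ± 0.10), against 0.712% of all genes. Of the 40 pathway genes, 17 rose and 1 fell with HSPA5 in all animals and 10 rose without Little_R. CALR (0.70 ± 0.08), HYOU1 (0.67 ± 0.09), SDF2L1 (0.73 ± 0.16) and PDIA4 (0.98 ± 0.17), all of the endoplasmic reticulum, were among the latter, as were the cytosolic AHSA1 (0.38 ± 0.07), FKBP4 (0.46 ± 0.10) and STIP1 (0.51 ± 0.10) and the chaperonin subunits CCT3, CCT4 and CCT5 (0.25 to 0.34).

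Between extraction years, DNAJB1 was 19.2 to 233 CPM (median 31.1 CPM) in the 17 animals of the earlier year and 21.6 to 11987 CPM (median 39.5 CPM) in the 21 of 2018, with overlapping ranges. HSPA1B was 120 to 1520 CPM (median 226 CPM) in the earlier year and 142.5 to 33056 CPM (median 490.5 CPM) in 2018, also with overlap. In a fit with sex and RNA integrity number, 17 of 73 members differed, 13 higher and 4 lower in 2018, against 15.1% of all genes (12.1% higher and 2.99% lower). Of the 10 stress-inducible members 7 were higher, with a log2 difference of 3.26 ± 0.77 for DNAJB1 (edgeR adjusted p = 0.00309), 2.83 ± 0.64 for HSPA1B (adjusted p = 0.00185) and 2.28 ± 0.62 for HSPH1 (adjusted p = 0.00999). None of the 22 constitutive cytosolic and 7 mitochondrial members differed.

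Without Little_R, 9 of 73 members differed, 7 higher and 2 lower, against 12% of all genes (9.14% higher and 2.89% lower), and 8 of the 9 were among the 17. HSPA1B was the only stress-inducible member left, at 1.396 ± 0.405 (edgeR adjusted p = 0.0187), together with HSPA1L at 1.28 ± 0.39, whereas DNAJB1 was at 1.21 ± 0.43 (adjusted p = 0.0584). HSPA12A, a divergent HSP70 with a median of 12.8 CPM in the earlier year and 18.8 CPM in 2018, was higher by 0.48 ± 0.12, and HSPA12B, its relative known from endothelium, by 0.75 ± 0.22. DNAJC10, a disulfide reductase of the endoplasmic reticulum, was lower by 0.37 ± 0.11 on the log2 scale, with medians of 20.3 and 15.04 CPM and ranges of 14.9 to 26.1 and 6.15 to 20.1 CPM that overlapped. DNAJC5G (1.596 ± 0.389), HSPBAP1 (0.56 ± 0.18), DNAJB13 (0.98 ± 0.32) and DNAJC22 (-0.68 ± 0.22) made up the rest of the 9. Among the 21 Yerkes animals alone (9 of the earlier year and 12 of 2018), which do not include Little_R, 0 members differed by edgeR, where 1.8% of all genes did, and 21 members had an unadjusted p under 0.05, including 8 of the 10 stress-inducible ones, as did 16.5% of all genes. DESeq2 and limma-voom were not run on these animals. Of the marker lists, 4 of 5 macrophage and 1 of 4 atrial markers were lower and 1 of 5 endothelial and 1 of 3 adipocyte markers tested were higher in 2018 without Little_R, and their part in these differences was not tested.

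In the fits on RNA integrity number, sex and age, edgeR passed 0 members. For RNA integrity, edgeR passed 0 of 73 members and 0% of all genes, with 24 members and 13.8% of all genes at an unadjusted p under 0.05, and DESeq2 passed 5 members (HSPH1, HSPA4L, DNAJB1, HSPB2 and DNAJA1) against 1.02% of all genes and limma-voom 0. HSPH1 had a slope of 0.76 ± 0.22 log2 units per unit of integrity number (edgeR adjusted p = 0.153), HSPA4L 0.45 ± 0.11 and HSPB2, a small heat shock protein of muscle, -0.16 ± 0.04 (adjusted p = 0.151 for both). Without Little_R, 12 members and 10.2% of all genes had an unadjusted p under 0.05, and the only stress-inducible one was HSPE1, at -0.12 ± 0.06 (edgeR adjusted p = 0.461) against 0.22 ± 0.12 with Little_R. There HSPH1 was at 0.07 ± 0.12, HSPA4L at 0.08 ± 0.04 and HSPB2 at -0.15 ± 0.04. DNAJB1 was at 0.09 ± 0.14 against 0.82 ± 0.26 with Little_R, and DNAJA1 at 0.09 ± 0.07 against 0.39 ± 0.12. DESeq2 was not run without Little_R alone. For sex, edgeR passed 0 of 73 members against 0.243% of all genes (0.188% higher and 0.0547% lower in males), and without Little_R 0 of 73 against 0.39% (0.305% higher and 0.0853% lower), with 0 members and 8.55% of all genes at an unadjusted p under 0.05 in all animals and 5 and 12.3% without Little_R, and DESeq2 and limma-voom passed 0. Without Little_R, DNAJB1 was 1.44 ± 0.45 log2 units higher in males (edgeR adjusted p = 0.136).

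For age, in the 34 animals with a value, which leave out Little_R, edgeR passed 0 members and 0% of all genes, with 13 members and 10.1% of all genes at an unadjusted p under 0.05, and DESeq2 and limma-voom also passed 0 members. HSPH1 had a slope of -0.33 ± 0.10 and HSPA1B of -0.37 ± 0.14 log2 units per 10 years (adjusted p = 0.414 and 0.439). The slope on DNAJB1 was also compared between extraction years by an interaction term, and 0 of 73 members and 0% of all genes passed by edgeR, with 3 members and 7.35% of all genes at an unadjusted p under 0.05 in all animals and 4 and 7.37% without Little_R. Within the earlier year alone, the slope on DNAJB1 passed for 3 members, HSPA1B (0.90 ± 0.09), HSPA1L (0.83 ± 0.10) and HSPH1 (0.78 ± 0.14), against 0.395% of all genes.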

How the data were processed

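RNA-seq counts of 38 chimpanzee hearts were used, 1 library per animal, so that p-values measure the spread between these animals. The tests treat the animals as independent, although some are first-degree relatives by the paper, and kinship was not modelled. Both count tables were used as the authors deposited them, as raw counts. In the gene count table, used for all member values, reads were aligned with STAR to Pan_tro_3.0 and counted per Ensembl gene by STAR itself. In the orthologous exon table, counted with featureCounts 1.6.3, only the total per animal was used, as an alternative library size. The submitters' processing notes name STAR 2.6.1b. Whether strand was used in counting was not given in the sources used here. Symbols were matched by gene identifier for 18040 of 31373 genes. A matrix of standardized scores and 51 further per-sample columns (the human libraries and 1 further chimpanzee, in 2 tables) were not used here. Extraction year, RNA integrity number, sex, age and centre were taken from the study's sample table.

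Levels are CPM of TMM-scaled library sizes, and log2 values add 0.5 CPM. Tests used edgeR 4.0.16 (filterByExpr, quasi-likelihood, Benjamini-Hochberg over all genes, threshold 0.05) in R 4.3.3, with DESeq2 1.42.0 and limma 3.58.1 as alternatives. Dispersion was computed for genes that reached 6 CPM in 1 or more animals, with a LOESS trend of degree 1 and span 0.75. The scripts were tested on simulated data. Figures were drawn with matplotlib 3.10.9. The members and lists were chosen with earlier results of these data known, and so was the removal of 537 and Little_R. The lists were stress-inducible, constitutive cytosolic, endoplasmic reticulum, mitochondrial, muscle small heat shock, germ cell and other pathway genes. Named genes are list genes, the 5 smallest adjusted p per direction in a fit, the 5 highest and 5 lowest dispersions, the 10 highest medians and the 5 nearest in pattern to DNAJB1 and HSPA5, and genes named after their values were seen are marked or complete a count. Of the 7 germ cell genes in the table, 2 reached 6 CPM, HSPA1L and DNAJC5G, with a dispersion of 2.96 and 0.37. Promoter sequences were not used here, so that a planned search for motifs was not made.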

Additional observations from a re-analysis of the deposited data

How the results depend on the processing

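The alternatives were another library size, DESeq2, limma-voom, no filter on low counts, other sets of animals, and other covariates, and those without Little_R alone, or combined with another choice, were chosen after seeing the data, as were the within-year values of the pairs. For extraction year, 17 members (23.3% of members tested, where 15.1% of all genes passed) became 6 by limma-voom (8.22% against 9.77%), 5 without 537 and Little_R (6.85% against 9.58%), 9 without Little_R (12.3% against 12%) and 0 in Yerkes animals only (against 1.8%), and 16 to 25 in the other alternatives. For RNA integrity, 0 became 5 by DESeq2 (6.85% of members against 1.02% of all genes), and the slope of HSPH1 was -0.14 in the earlier year only. Sex, age and the difference of the DNAJB1 slope kept 0 in all alternatives tried.

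For the slope on DNAJB1, 47 members (64.4%, where 49.1% of all genes passed) became 31 without 537 and Little_R (42.5% against 36.9%), 3 in the earlier year only (4.17% against 0.395%), 19 with principal component 1 (26% against 5.51%), 11 with it and without Little_R (15.1% against 1.49%), 31 with HSPA5 in the fit and without Little_R (42.5% against 40.6%), and 25 in 2018 only without Little_R (34.2% against 35.6%). With the first component, DNAJC13 was at 0.033, and without Little_R DNAJC13 was at 0.016 and HSPB7 at 0.070. For the slope on HSPA5, 23 (31.5% against 4.15%) became 15 without 537 and Little_R (20.8% against 1.19%), 13 without Little_R (18.1% against 1.31%), 2 in 2018 only (2.74% against 0.11%), 1 in the earlier year only (1.39% against 0.0307%), 0 in 2018 only without Little_R (against 0%), and 4 with DNAJB1 in the fit (against 0.64%), or 4 also without Little_R (against 0.712%), of which 3 were shared. DNAJC5G was at 0.038 in the earlier year only. With DNAJB1 in the fit, HSPA1B was at -0.15 and DNAJB1, whose own level is then in the model, at -0.0088, and without Little_R at -0.17 and -0.020. In the fits with both DNAJB1 and HSPA5, the gene added as a covariate was still counted among the members tested. Its own slope there says nothing. With library sizes from the orthologous exon total, the median slope of all genes on HSPA5 was 0.10, and 21.8% of all genes passed against 4.15%, and without the filter on low counts the median difference of all genes between years was 0.13. The cause of these changes was not tested.

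The difference of median dispersion between stress-inducible and constitutive cytosolic members was 1.30 without 537 and Little_R, 1.20 without Little_R, and 1.77 to 2.92 in the other alternatives. The r of DNAJB1 and HSPA8 no longer passed without the 2 farthest animals (0.157), without 537 and Little_R (0.276), without Little_R (0.183, and 0.167 after removing year and RNA integrity) and in 2018 only without Little_R (0.0265), and that of DNAJB1 and HSPA5 did not pass without the 2 farthest animals (0.309), without 537 and Little_R (0.339), in the earlier year only (0.501) and in 2018 only without Little_R (0.354). DNAJB1 and HSPB7 did not pass in the earlier year only (-0.274). DNAJB1 and HSPH1 and HSPA5 and HSP90B1 passed in all 8 alternatives. No paired analysis was possible because the animals form 1 group. Counts of members near 0 CPM limit what can be said of the germ cell genes, and 1 library per animal leaves the error within an animal unknown.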
